A study of Mus musculus with 6 samples.

Results

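Il1rl1, Il18r1, Il18rap and Myd88 are 4 of the 15442 genes in a table of gene expression from mouse liver cells, and they were taken by gene name. Il1rl1 (Entrez ID 17082) encodes ST2, the receptor chain that binds interleukin-33 (IL-33). Il18r1 (16182) encodes the chain that binds interleukin-18 (IL-18), and Il18rap (16174) the accessory chain that this receptor needs in order to signal. Myd88 (17874) encodes the adaptor protein that carries the signal of both receptors, and of most Toll-like receptors, to the IRAK kinases and NF-kB. RNA sequencing was done on cells sorted for green fluorescence from the livers of Foxp3-GFP reporter mice, in which the fluorescent protein marks regulatory T (Treg) cells, a CD4 lineage that holds immune responses in check. There were 3 libraries from mice with a model of autoimmune hepatitis (AIH) and 3 from control mice. How the model was induced, what the control mice received, their age and sex, and how many animals or cells went into a library are not stated in the labels. Separate animals are not named for the libraries, and the p-values therefore reflect the spread among these libraries alone.

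IL-33 is an alarm signal that damaged tissue releases, and many Treg cells of non-lymphoid tissue carry ST2 and multiply in response to it. IL-18 is released by macrophages and other cells after inflammasome activation. It is best known for raising interferon gamma in T cells and NK cells together with interleukin-12. Both receptors belong to the interleukin-1 receptor family, whose signalling chains end in an intracellular TIR domain to which Myd88 binds. Il1rl1 also gives rise to a shorter, secreted form (soluble ST2) that binds IL-33 without passing on a signal. A short form of the IL-18 binding chain that lacks the TIR domain has likewise been described.

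The short and full transcripts of both binding chains part within a coding exon, and these stretches are shown because the transcript results below turn on them. They are on the plus strand of chromosome 1 in GENCODE M21 (build GRCm38), whose annotation paired 7 of the 14 transcripts of these genes with a transcript of its own. In each line the lower case letters are the 21 coding bases that both forms share, and the capitals are what follows in that form.
Il1rl1 short form, chr1:40446655-40446704: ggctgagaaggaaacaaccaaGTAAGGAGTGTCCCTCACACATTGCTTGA
Il1rl1 full form: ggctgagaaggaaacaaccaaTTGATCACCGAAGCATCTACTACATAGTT
Il18r1 short form, chr1:40491196-40491233: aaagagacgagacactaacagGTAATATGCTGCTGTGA
Il18r1 full form: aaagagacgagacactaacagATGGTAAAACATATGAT
In the short forms the reading frame runs on past the splice site into what is intron in the full form, and ends at a stop codon after 29 bases in Il1rl1 and 17 bases in Il18r1. In the full forms the capitals are the start of the next coding exon, at position 40450075 for Il1rl1 and 40495749 for Il18r1. The short Il1rl1 form codes for 337 amino acids and lacks the last 3 coding exons of the 567 amino acid form. The short Il18r1 form codes for 372 amino acids and lacks the last 2 coding exons of the 537 amino acid form.

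The 3 receptor genes lie side by side in the order Il1rl1, Il18r1, Il18rap, next to Il1rl2, Il1r1 and Il1r2, in a cluster of interleukin-1 receptor genes, while Myd88 is on chromosome 9. RefSeq start sites of Il1rl1 (build GRCm38.p6, plus strand) lie at an upstream and a downstream promoter. They are shown because the short transcript found here, as GENCODE draws it, starts at the upstream one, and the annotated full transcript at the downstream one. Another GENCODE form of 337 amino acids starts at position 40439776, just past the downstream window, so a downstream start does not mark the full form alone. The annotation used here gives no start for the longer transcript that held reads in all libraries, described below. Each window runs from 250 bases before to 50 bases after the start, and capitals mark GATAA on either strand, the core of the motif of GATA factors.
Il1rl1 upstream, chr1:40429320-40429619: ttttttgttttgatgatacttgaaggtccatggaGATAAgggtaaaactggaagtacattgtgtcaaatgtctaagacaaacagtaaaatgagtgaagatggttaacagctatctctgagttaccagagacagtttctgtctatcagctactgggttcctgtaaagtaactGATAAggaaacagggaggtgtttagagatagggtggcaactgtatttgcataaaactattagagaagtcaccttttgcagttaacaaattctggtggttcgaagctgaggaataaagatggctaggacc
Il1rl1 downstream, chr1:40439379-40439678: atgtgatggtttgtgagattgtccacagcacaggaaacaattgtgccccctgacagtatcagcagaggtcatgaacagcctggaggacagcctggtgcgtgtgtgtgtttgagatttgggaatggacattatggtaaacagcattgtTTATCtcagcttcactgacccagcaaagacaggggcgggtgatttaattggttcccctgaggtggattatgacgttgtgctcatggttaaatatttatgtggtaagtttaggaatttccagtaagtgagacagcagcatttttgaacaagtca
The upstream window held GATAA at 2 places and the downstream window at 1. Of all 32851 RefSeq promoter windows of this length, 25.4% held it at least once and 5.27% at 2 or more places. Other motifs searched on both strands were TGANTCA of AP-1 (7.81% of all windows), TTCNNNGAA of STAT factors (8.3%) and TGTGGT of RUNX factors (16.8%), of which 1 TGTGGT lay in the downstream window. A match describes the letters and does not show that a factor binds.

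The libraries held between 17780509 and 24572388 expected counts, and 11140 genes passed the filter on low counts, all 4 genes among them. Foxp3, the gene behind the sort, was at 0.267, 4.13 and 1.56 library-scaled counts (CPM) in the AIH-labelled libraries and at 16.8, 14.1 and 38.3 CPM in the control libraries (adjusted p 0.501 by edgeR). This goes against the label of a Treg sort for the AIH group, so these are called the AIH-labelled libraries, or AIH for short. The control libraries did not hold Treg transcripts alone either. There 12 macrophage and Kupffer cell genes summed to 6526, 3642 and 15640 CPM, against 466, 2091 and 2697 CPM (AIH). The 10 Treg genes together summed to 5510 to 8030 CPM (AIH) against 1710 to 2917 CPM (Control), a sum carried by Tnfrsf18, Tnfrsf4 and Tigit. Of these 10 genes 6 had a positive log2 fold change, while Cd4 (−0.67), Lrrc32 (−0.71), Il2ra (−0.04) and Foxp3 had a negative one. None of the 10 passed by edgeR as fitted, and 3 each were called by edgeR without the filter on low counts, by DESeq2 and by limma-voom. Of all genes these fits called 0.208%, 1.65% and 0.189%, in that order. On the first principal component, with 32.5% of the variance, AIH 1 and Control 3 stood farthest apart. AIH 1 was also the library with Fcer1a, a gene of mast cells and basophils, at 35.2 CPM, while the other 5 libraries had it at 0.

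**Figure D1:**
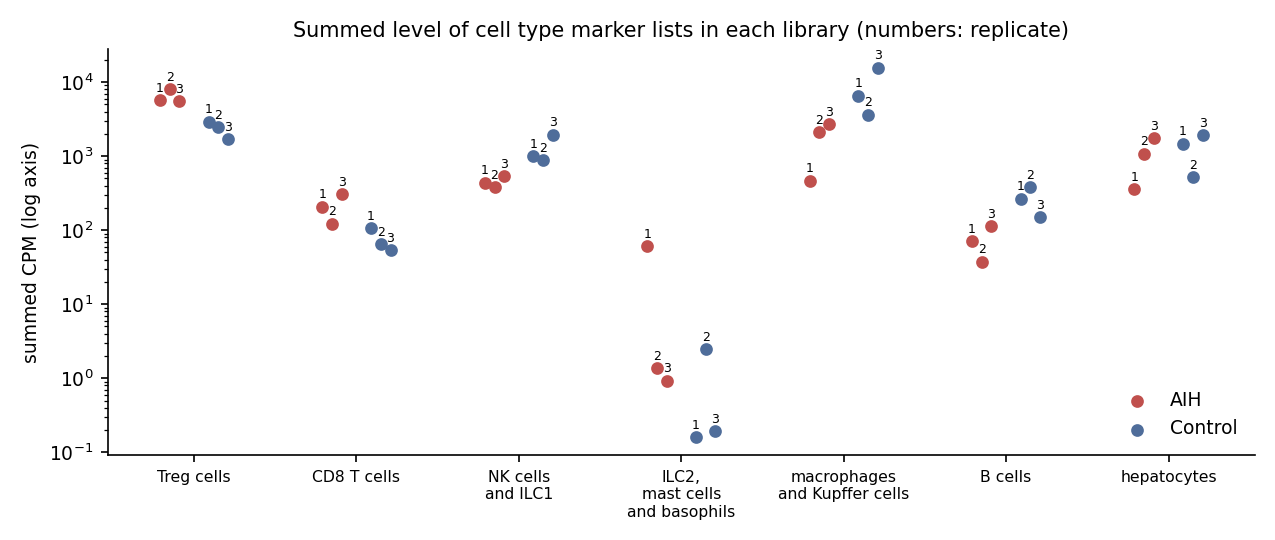
Summed CPM of the marker genes of 7 cell types in each library, on a log axis, with AIH libraries left of control libraries and the replicate number above each point. The macrophage list is lower in all 3 AIH-labelled libraries (466 to 2697 CPM) than in all controls (3642 to 15640 CPM), and AIH 1 alone stands high for the mast cell and ILC2 list (61.2 CPM).

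Markers of other cells were not level between the groups, although none of them passed the test of edgeR with the filter on low counts. For 11 of 12 macrophage and Kupffer cell genes every AIH-labelled library lay below every control library, and 5 of the 12 were called by DESeq2 and 2 by edgeR without the filter. Over all genes DESeq2 called 1.65%, edgeR without the filter 0.208% and limma-voom 0.189%. Among all genes tested, the groups did not overlap for 17.3%, and for 8.87% with AIH below. The 2 CD8 T cell genes summed to 122 to 309 CPM (AIH) against 54.2 to 107 CPM (Control). The 7 NK cell genes summed to 382 to 542 CPM (AIH) against 888 to 1948 CPM (Control), mostly from Tyrobp, which macrophages also express. Of the 4 that were tested 2 had a positive and 2 a negative log2 fold change. Klre1, an NK cell lectin receptor, was at 155, 10.1 and 46.1 CPM (AIH) against 1.13, 10.8 and 0 CPM (Control), with a log2 fold change of 4.15 (SE 1.66). Ncr1, which defines NK cells and ILC1, was at 28.9, 0 and 0 CPM (AIH) against 8.99, 17.1 and 0 CPM (Control). B cell genes summed to 37.3 to 114 CPM (AIH) against 151 to 378 CPM (Control). Of those tested, Cd79b alone had every AIH-labelled library below every control, and Ms4a1 was higher in AIH 3 than in Control 1 and Control 3. Endothelial and stellate cell genes summed to 27.1 to 39.8 CPM (AIH) against 54.9 to 92.7 CPM (Control). There Pecam1 alone was without overlap, and Dcn had a positive log2 fold change. Hepatocyte genes summed to 359.9 to 1742 CPM (AIH) against 516 to 1900 CPM (Control). Of mast cells and ILC2, which carry much ST2, Kit did not exceed 0.516 CPM and Il5 0.244 CPM in any library. Other genes of that list were higher in AIH 1, as was Fcer1a. Cpa3 was at 2.45 CPM in AIH 1, at most 0.0487 CPM in AIH 2 and AIH 3, and at 0 in every control. Ms4a2, the 1 tested gene of the list, was at 22.9 CPM in AIH 1 and far lower in every other library. Its log2 fold change was 3.82 (SE 2.32). In a bulk library, fewer cells of a type cannot be told apart from less RNA per cell.

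None of the 4 genes passed an adjusted p of 0.05 between the groups. Il1rl1 and Il18rap had lower means in the AIH-labelled libraries, Il18r1 a higher one, and Myd88 a similar one, and the groups overlapped for all but Il18rap. Across all genes 10, or 0.0898%, passed (edgeR's quasi-likelihood test, Benjamini-Hochberg adjustment). Of the 4 genes, 1 had an unadjusted p under 0.05, against 8.27% of all genes tested. This was Il1rl1, and it was also the 1 such gene by DESeq2 and by limma-voom. With libraries left out in turn, Il1rl1 stayed under 0.05 by edgeR only without AIH 3 and without Control 1. Without AIH 1 the 1 such gene was Il18rap, and the remaining fits of this kind had none. There was also none without AIH 1 and Control 3 together.

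**Figure D2:**
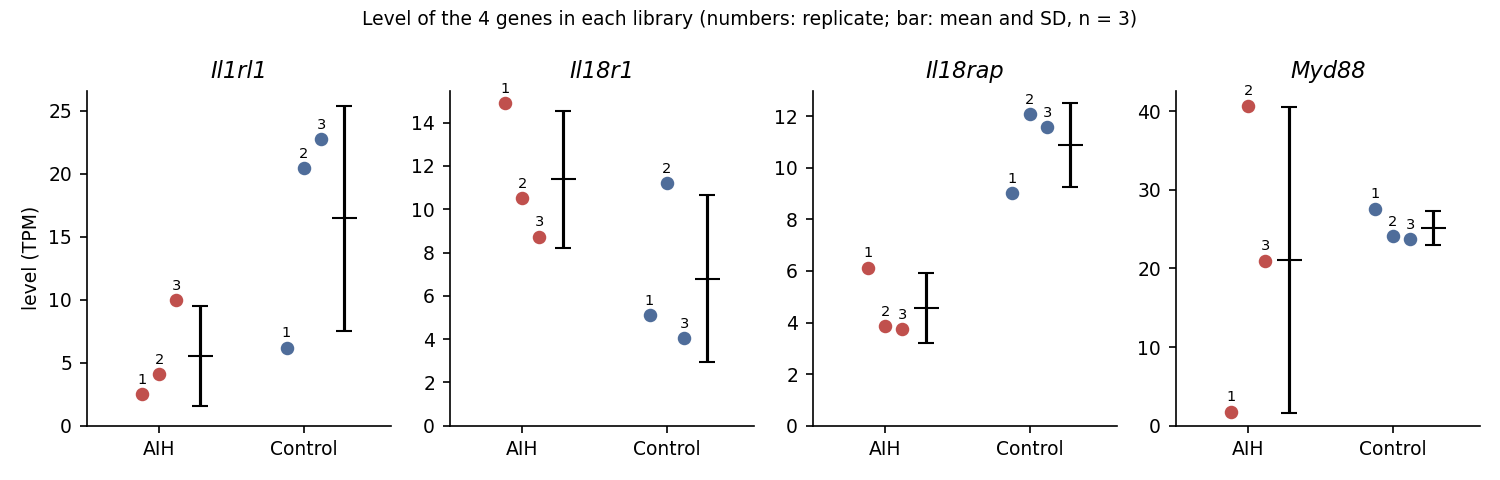
Level of Il1rl1, Il18r1, Il18rap and Myd88 in TPM in each library, AIH left of Control, with the replicate number above each point and the mean and SD of 3 libraries as a bar. The groups do not overlap for Il18rap; for Myd88 the library AIH 1 stands at 1.75 TPM, far below the other 5.

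Il1rl1, the IL-33 binding chain, had 248, 388 and 875 expected counts (AIH) against 879, 1720 and 2223 (Control), listed here and below for replicates 1, 2 and 3 in that order. Its level in TPM, a unit corrected for transcript length and depth, was 2.48, 4.07 and 9.98 TPM (AIH) against 6.20, 20.4 and 22.7 TPM (Control). The groups overlapped, since AIH 3 stood above Control 1. On the CPM scale the means were 24.5 ± 15.9 for AIH and 69.7 ± 29.8 for Control (SD, n = 3 each), a log2 fold change of −1.51 (SE 0.61), or 2.85-fold lower in the AIH-labelled libraries. Its adjusted p in that test of edgeR was 0.557, with the unadjusted p among the smallest 5.94% of all genes. The log2 fold change stayed below 0 in all 14 alternative settings, between −2.20 without AIH 3 and −1.21 without AIH 1 when libraries were left out in turn. The macrophage genes were also low in the AIH-labelled libraries, and their part in the Il1rl1 values was not tested.

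Il18r1, the IL-18 binding chain, was at 14.9, 10.5 and 8.73 TPM (AIH) against 5.11, 11.2 and 4.05 TPM (Control). Control 2 lay within the range of the AIH-labelled libraries, and the other 2 controls lay below it. The group means in CPM were 36.0 ± 18.5 for AIH and 23.8 ± 14.4 for Control (SD, n = 3 each), a log2 fold change of 0.59 (SE 0.67) with an adjusted p of 0.901 by edgeR. The value rested on single libraries: it was 0.086 without AIH 1, 1.21 without Control 2 and −0.14 without AIH 1 and Control 3 together. AIH 1, the highest of all 6 libraries in Il18r1, also had the highest values of the NK cell genes Ncr1 and Klre1. Klrb1c was at 43.8 CPM in AIH 1 and 43.1 CPM in Control 1. The rest of that list went the other way. Tyrobp was lowest in AIH 1 (211 CPM), and Eomes, Klrb1b and Klri2 were highest in Control 1. The whole list summed to 440 CPM in AIH 1, below the 888 to 1948 CPM of the controls. The part of NK cells in the Il18r1 values was not tested.

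Il18rap, the accessory chain of the IL-18 receptor, was at 6.13, 3.85 and 3.74 TPM (AIH) against 9.01, 12.1 and 11.6 TPM (Control). Every AIH-labelled library lay below every control, a pattern shared by 8.87% of all genes tested. The group means in CPM were 20.9 ± 8.34 for AIH and 41.3 ± 4.47 for Control (SD, n = 3 each), a log2 fold change of −0.99 (SE 0.56) with an adjusted p of 0.717 by edgeR. Leaving out a library moved it between −1.36 without AIH 1 and −0.81 without AIH 2. Nearly all of its reads were placed on 1 transcript, XM_006495712.2. NK cells and ILC1 also express both IL-18 receptor chains, and the part of the NK cell genes given above in the Il18rap values was not tested.

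Myd88, the shared adaptor, was at 1.75, 40.7 and 20.95 TPM (AIH) against 27.6, 24.1 and 23.7 TPM (Control). The controls lay close together, with an SD of 2.12 TPM, against an SD of 19.5 TPM in the AIH-labelled libraries. AIH 1 had 80 counts, where the other 5 libraries had between 866 and 1736. The log2 fold change was −0.12 (SE 0.81) with an adjusted p of 0.987 by edgeR, and it was 0.41 (SE 0.47) without AIH 1, −0.88 without AIH 2 and −0.80 by limma-voom.

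The order of the levels, compared per length in TPM, differed between the groups. In the AIH-labelled libraries the means ran from Myd88 (21.1 ± 19.5 TPM) over Il18r1 (11.4 ± 3.17) and Il1rl1 (5.51 ± 3.95) to Il18rap (4.57 ± 1.35). In the controls they ran from Myd88 (25.1 ± 2.12 TPM) over Il1rl1 (16.5 ± 8.96) and Il18rap (10.9 ± 1.64) to Il18r1 (6.79 ± 3.86; SD, n = 3 each). Neighbours in either order overlapped between libraries, except that Myd88 lay above the 3 receptor genes in every control.

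Ratios within a library do not depend on its depth, and they set the IL-18 receptor chains apart. The ratio of Il18rap to Il18r1 in TPM was 0.412, 0.366 and 0.428 (AIH) against 1.76, 1.08 and 2.86 (Control). By gene TPM, Il18r1 thus exceeded Il18rap in every AIH-labelled library and was exceeded by it in every control. The gene TPM of Il18r1 includes its short transcripts, described below. Its other transcripts, mainly the full form, were at 7.27, 2.21 and 2.86 TPM (AIH) against 2.15, 9.06 and 3.95 TPM (Control). They exceeded Il18rap in AIH 1 alone, and lay below it in AIH 2, AIH 3 and every control. The mean log2 ratio of Il18rap to Il18r1 by gene TPM was −1.32 for AIH and 0.81 for Control, a difference of −2.13. The ratio of Il1rl1 to Il18r1 was 0.167, 0.387 and 1.14 (AIH) against 1.21, 1.82 and 5.61 (Control), a difference of −2.47 on the log2 scale. The ratio of Il1rl1 to Il18rap overlapped between the groups, with a difference of −0.33. These 3 ratios were chosen after the values of the genes were seen, so they are a description with no test.

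**Figure D3:**
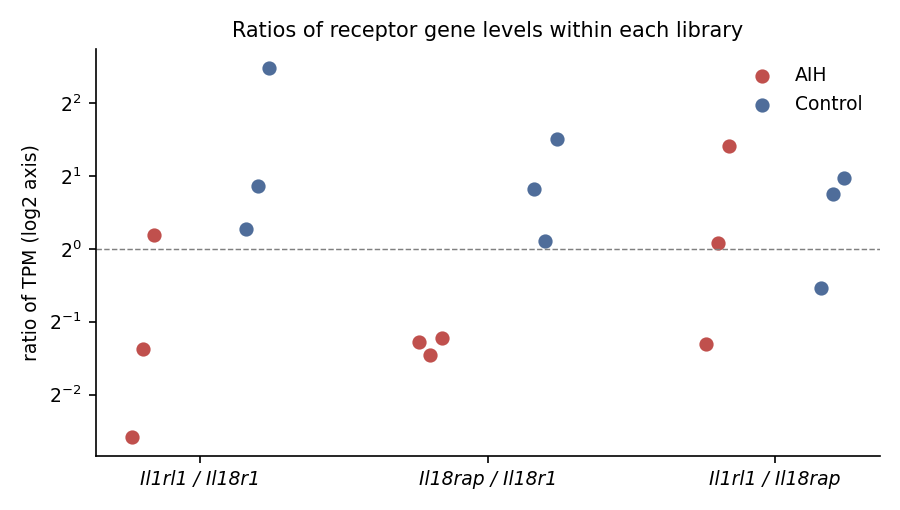
Ratio of TPM between receptor genes within each library, on a log2 axis, AIH left of Control in each pair; the dashed line marks a ratio of 1. For Il18rap over Il18r1 the AIH-labelled libraries lie together near 0.4, below all controls, which lie between 1.08 and 2.86. The level of Il18r1 here includes its short transcripts.

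The reads of Il1rl1 were placed mainly on 2 transcripts. The longer, XM_006495741.1, had 153, 258 and 374 expected counts (AIH) against 879, 1266 and 1342 (Control). Every AIH-labelled library lay below every control, as for 7.86% of all 17999 transcripts tested. Its log2 fold change was −2.04 (SE 0.68) with an unadjusted p of 0.0200 and an adjusted p of 0.924 by edgeR, and lay between −2.40 without AIH 3 and −1.76 without AIH 1. The reference annotation used here does not describe this transcript; the deposited counts and FPKM give it a usable length of 4982 bases, near the 5302 bases of the annotated full form.

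The short form NM_001294171.1, whose coding end is the first sequence above, had 88.8, 130 and 501 expected counts in the AIH-labelled libraries and 0, 454 and 881 in the controls. The groups overlapped, with a log2 fold change of −0.73 (SE 2.0) and an adjusted p of 0.9999 by edgeR. It was −1.88 without AIH 3, −0.0039 without Control 3 and 0.42 with the replicate number as a block, so its direction is not settled. Its usable length was 2715 bases, more than the 1216 bases of the GENCODE model, so the annotation behind the counts draws this transcript longer. It made up 50.6, 48.2 and 71.0% of the gene's TPM in the AIH-labelled libraries and 0, 39.7 and 54.7% in the controls. The mean share was 25.1 percentage points higher in the AIH-labelled libraries, with p = 0.3 by a 2-sided exact permutation test (n = 3 each, smallest possible p 0.1), and 9.42 points higher without Control 1. The full transcript NM_001025602.3, which is annotated at the downstream promoter, had 6.58 counts in AIH 1 and none in the other 5 libraries.

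Il18r1 also had short and full transcripts, and here the short ones had the higher levels in the AIH-labelled libraries. NM_001161842.1 and NM_001161843.1, which end in the short form shown above, summed to 7.62, 8.31 and 5.87 TPM (AIH) against 2.96, 2.15 and 0.10 TPM (Control). Every AIH-labelled library lay above every control, with means of 7.27 ± 1.26 TPM for AIH and 1.74 ± 1.47 TPM for Control (SD, n = 3 each). All other transcripts of the gene, mainly the full form NM_008365.2, summed to 7.27, 2.21 and 2.86 TPM (AIH) against 2.15, 9.06 and 3.95 TPM (Control), and the groups overlapped. The short transcripts made up 51.2, 79.0 and 67.2% of the gene's TPM in the AIH-labelled libraries and 57.9, 19.2 and 2.47% in the controls, again with overlap, between AIH 1 and Control 1. This sum was chosen after its values were seen and has no test. In AIH 1 it rests on NM_001161842.1, with 318 counts there and 0 in every other library. NM_001161843.1, tested alone, overlapped between the groups (log2 fold change 1.58, SE 1.75), and none of the transcripts of these 4 genes passed an adjusted p of 0.05, nor did any of the 17999 transcripts; 4.16% of them, and 1 of the transcripts of these genes, had an unadjusted p under 0.05 by edgeR. Reads shared by both forms were divided between them by estimation, and the error of that step is not in these values.

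**Figure D4:**
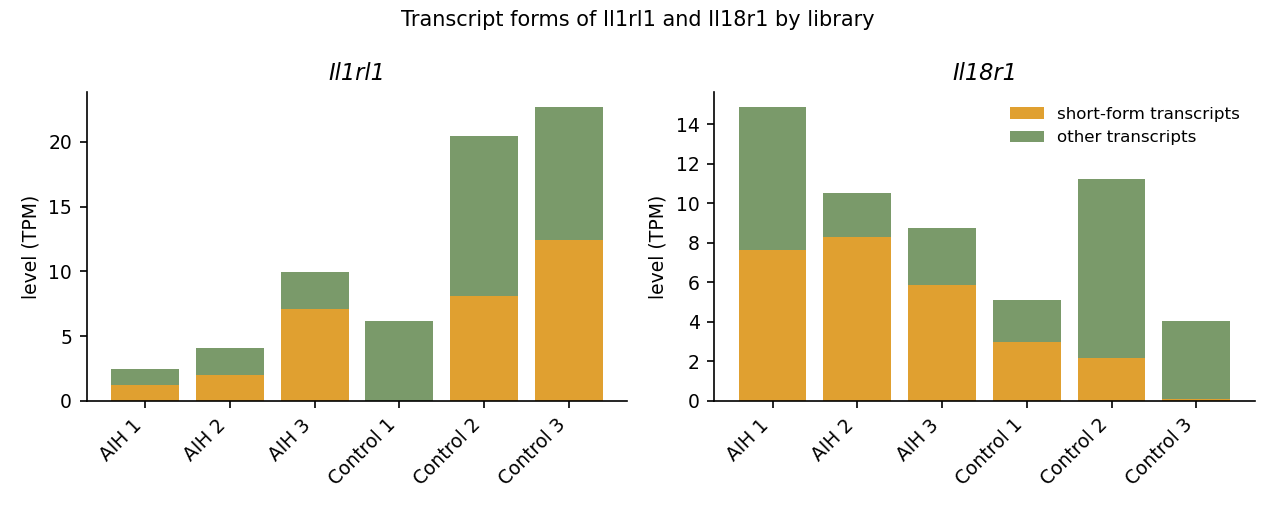
Level in TPM of the short-form transcripts and of all other transcripts of Il1rl1 (left) and Il18r1 (right) in each library, stacked, AIH left of Control. For Il18r1 the short part is between 5.87 and 8.31 TPM in the AIH-labelled libraries and at most 2.96 TPM in the controls; for Il1rl1 the other part is at most 2.89 TPM in the AIH-labelled libraries and at least 6.20 TPM in the controls.

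Among the ligands and their decoys, Il33 was nearly absent from the sorted cells, at 0.0533, 0 and 0 CPM (AIH) against 5.64, 0 and 0 CPM (Control). Il18 itself was at 49.7, 16.7 and 18.8 CPM (AIH) against 19.0, 14.0 and 118.9 CPM (Control). Il18bp, the secreted protein that captures IL-18, was at 46.0, 191 and 78.1 CPM (AIH) against 153, 119 and 433 CPM (Control). The groups overlapped for both. Il1b, the classical inflammasome cytokine made by myeloid cells, was at 0.0533, 14.7 and 18.4 CPM (AIH) against 110, 37.1 and 225 CPM (Control), without overlap (log2 fold change −3.49, SE 1.30, adjusted p 0.525 by edgeR). All 5 tested genes of this list lay below 0 on the log2 scale, with a median of −0.83. With the filter applied anew, the median was −1.51 over 6 tested genes without AIH 2. Over 5 tested genes it was −0.37 without Control 3 and −0.020 without AIH 1 and Control 3. Among all genes tested 51.9% lay below 0, and the median was −0.041.

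The other tested receptors of the family had positive log2 fold changes, unlike Il1rl1 and Il18rap. Il1r2, a decoy receptor for interleukin-1 carried by activated Treg cells and located in the same cluster, was at 38.6, 126 and 48.8 CPM (AIH) against 28.7, 10.2 and 0.573 CPM (Control). Every AIH-labelled library lay above every control (log2 fold change 2.43, SE 1.08, adjusted p 0.604 by edgeR). Sigirr, an inhibitory member of the family that dampens these receptors, was at 73.4, 57.5 and 23.8 CPM (AIH) against 13.2, 33.5 and 10.9 CPM (Control) (log2 fold change 1.43, SE 0.67, adjusted p 0.635). Il1rap, the accessory chain that ST2 and the interleukin-1 receptor share, was at 0.747, 26.3 and 15.6 CPM (AIH) against 13.1, 4.96 and 5.96 CPM (Control), with AIH 1 again the lowest. These 3 receptors had a median log2 fold change of 1.43, and none passed the test. Leaving out AIH 2 and applying the filter anew gave 4 tested receptors, 3 positive and 1 negative, with a median of 0.69. Leaving out Control 3 also gave 4, again 3 positive and 1 negative, and their median was 0.90. Il1r1, the signalling interleukin-1 receptor, did not exceed 0.0533 CPM in any library, and Il1rl2, the receptor for interleukin-36, was at 0 to 0.0487 CPM (AIH) against 0.268 to 6.92 CPM (Control). Map4k4, beyond Il1r2 in the gene order, had a log2 fold change of 0.14 (SE 0.79).

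**Figure D5:**
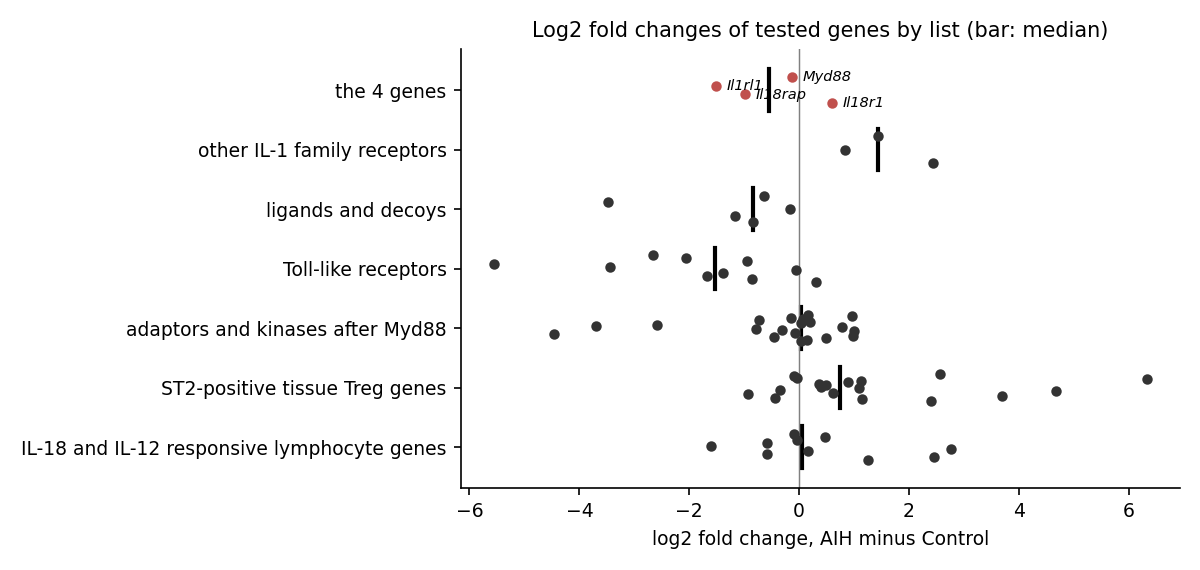
Log2 fold change (AIH minus Control) of each tested gene in 7 lists, with the median as a bar. Il1rl1, Il18rap and Myd88 lie below 0 and Il18r1 above; the Toll-like receptor list has the lowest median (−1.54) and the other receptors of the family the highest (1.43).

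The kinases and adaptors that follow Myd88 showed no common direction. Of 20 tested, 11 had a positive log2 fold change, and 5 when scaled by library totals. The median was 0.032, and −0.17 when scaled by library totals. With libraries left out in turn it lay between −0.19 without Control 2 and 0.17 without AIH 2, where 21 genes were tested. None passed the test of edgeR, and 2 were higher and 1 lower at an unadjusted p under 0.05, against 4.42% and 3.85% of all genes. The 2 higher were Peli1, a ubiquitin ligase of this pathway, at 441, 344 and 529 CPM (AIH) against 210, 270 and 283 CPM (Control), and Ube2n, which builds the ubiquitin chains made by Traf6, at 474, 680 and 422 CPM (AIH) against 369, 260 and 175 CPM (Control). The lower was Irak3, an inhibitory kinase of myeloid cells, at 0.747, 0.0454 and 0.0974 CPM (AIH) against 5.84, 12.4 and 1.64 CPM (Control). Mapk14, the p38 kinase, was at 49.4, 27.5 and 60.7 CPM (AIH) against 72.0, 81.1 and 83.2 CPM (Control), without overlap.

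The Toll-like receptors, most of which signal through Myd88, were taken with their helper Unc93b1 and the adaptor Ticam1. Of 10 tested genes 9 lay below 0 on the log2 scale, with a median of −1.54. The median was −3.18 with the replicate number as a block and −2.80 by limma-voom. Without Control 3 it was −0.80, over 11 tested genes. In 5 of the 10, every AIH-labelled library lay below every control, against 8.87% of all genes tested. Tlr7, a sensor of single-stranded RNA, was at 40.8, 30.1 and 64.7 CPM (AIH) against 85.2, 73.0 and 105 CPM (Control) (log2 fold change −0.96, SE 0.42). Tlr6 was at 0.427, 0.0454 and 0.292 CPM (AIH) against 6.04, 19.1 and 11.5 CPM (Control). Unc93b1, which brings Tlr7 and some other receptors of this list to endosomes, was at 5.39, 14.8 and 10.4 CPM (AIH) against 44.1, 32.0 and 117 CPM (Control) (log2 fold change −2.66, SE 0.69). None passed the test, with adjusted p-values of 0.602, 0.421 and 0.359 by edgeR; DESeq2 called 2 genes of this list, against 1.65% of all genes. The macrophage genes were low in the AIH-labelled libraries too, and their part in these values was not tested.

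Genes that accompany ST2 in tissue Treg cells lay on both sides of 0. Of 18 tested, 13 lay above 0 on the log2 scale (median 0.75, or 0.35 without AIH 3), and in 6 every AIH-labelled library lay above every control, against 8.46% of all genes tested. Gata3, a transcription factor that drives Il1rl1 in Th2 cells, was at 96.5, 117 and 163 CPM (AIH) against 69.5, 121 and 56.8 CPM (Control) (log2 fold change 0.61, SE 0.39, adjusted p 0.755 by edgeR). Areg, the repair factor amphiregulin that IL-33 induces in Treg cells, was at 12.8, 27.2 and 11.5 CPM (AIH) against 9.71, 0.0516 and 0.0382 CPM (Control). Ccr8, which guides Treg cells into tissue, was at 146, 407 and 286 CPM (AIH) against 37.3, 17.6 and 9.86 CPM (Control), a log2 fold change of 3.70 (SE 0.58) with an adjusted p of 0.0927. Penk, which encodes the precursor of enkephalins, was at 106, 529 and 354 CPM (AIH) against 10.1, 2.12 and 0.0382 CPM (Control), with an adjusted p of 0.300. Below 0 lay Rora (−0.10), Pparg (−0.03), Ccr2 (−0.43), Il9r (−0.35) and Dgat2 (−0.93), given as log2 fold changes. None of the 18 passed by edgeR, 5 were higher at an unadjusted p under 0.05, against 4.42% of all genes. DESeq2 called 3 and edgeR without the filter 2, against 1.65% and 0.208% of all genes.

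Genes that answer IL-18 together with interleukin-12 had a median that depended on the fit. Of 10 tested, 5 had a positive and 5 a negative log2 fold change, and the median was 0.060, or −0.10 when scaled by library totals. It was 0.90 without Control 1, −0.14 without Control 3, 0.93 with the replicate number as a block and 1.11 by limma-voom, with 7 positive and 3 negative in each of these last fits. Ifng, which encodes interferon gamma, was at 74.3, 27.8 and 40.2 CPM (AIH) against 4.47, 6.25 and 10.1 CPM (Control) (log2 fold change 2.77, SE 0.70, adjusted p 0.349 by edgeR). Cxcr3 and Cxcr6, chemokine receptors of Th1-type and liver-resident lymphocytes, likewise had every AIH-labelled library above every control, with log2 fold changes of 1.26 (SE 0.35) and 2.46 (SE 0.45). Il12rb1, a chain of the interleukin-12 receptor, was at 4.59, 9.48 and 10.4 CPM (AIH) against 24.9, 34.9 and 14.7 CPM (Control), below every control as for Il18rap. Tbx21, the transcription factor T-bet, was at 2.13, 6.85 and 1.07 CPM (AIH) against 1.61, 9.19 and 0 CPM (Control). None of the 10 passed by edgeR, where 3 were higher at an unadjusted p under 0.05, against 4.42% of all genes. DESeq2 called 3, and limma-voom and edgeR without the filter called 1 each, against 1.65%, 0.189% and 0.208% of all genes.

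Genes whose pattern over the 6 libraries was most like that of each of the 4 genes were taken by Pearson's r of log2 CPM among 5783 other genes with a mean of at least 20 CPM. For Il1rl1 these were Ifngr2, a chain of the interferon gamma receptor (r = 0.98), Ablim1, Zfp281, Atxn7l3b and Prex1. For Il18r1 they were Gm51415, Relb, an NF-kB subunit (r = 0.99), Mrpl27, Dbf4 and Tusc3. For Il18rap they were Zfp592, Cd2bp2, Pxk, Clock, a transcription factor of the circadian clock (r = 0.98), and Rab3gap1. For Myd88 they were Rnmt, an mRNA cap methyltransferase (r = 0.996), Ppp3r1, a calcineurin subunit (r = 0.995), Aup1, Drg2 and Pithd1. With 6 libraries such values are a description only.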

How the data were processed

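RNA of sorted cells was sequenced in 6 libraries after SMART-Seq2 amplification, per the labels' protocols. The tables deposited by the authors hold, per the file headers, read counts, called expected counts here (14.8 to 16.7% of gene values per library are not whole), TPM, FPKM and a normalized read count, a signal scaled by the authors that was not used here. The authors' group means were not used either. The deposited FPKM served only to derive usable transcript lengths. Per the submitters' processing notes, FastQC, STAR and featureCounts (no versions) and the build GRCm39 (mm39) were used. How reads were shared between transcripts, and how these steps gave counts that are not whole, is not given in the sources used here. Sequences come from GENCODE M21 and RefSeq (GRCm38), another build, so no position was carried over.

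Expected counts were rounded and fitted over all genes with edgeR 4.0.16 in R 4.3.3 (TMM, filterByExpr by group with a minimum count of 10 and minimum total of 15, quasi-likelihood, group as the only term). SE is the absolute log2 fold change over the root of the F statistic. CPM use TMM library sizes. The test was checked on simulated counts, with larger changes than in the 4 genes and a smaller spread between libraries than in these data. That check does not show what the test can find at the spread seen here. Alternatives included DESeq2 1.42.0 and limma-voom 3.58.1. Named were the 4 genes, up to 4 genes per list with the smallest p, 5 genes most alike each, and the chromosome 1 neighbours. Gata3, Areg, Tbx21, Il33, Rora, Pparg, Ccr2, Il9r, Dgat2, Cd4, Lrrc32, Il2ra, Fcer1a, Kit, Il5, Cpa3, Eomes, Klrb1b and Klri2 were added after their values were seen. The genes, lists, tests and alternatives were chosen with earlier results of these data known. No molecular identifiers mark amplified copies.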

Additional observations from a re-analysis of the deposited data

How the results depend on the processing

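None of the 4 genes was called in any of 14 alternative settings, and the lowest adjusted p was 0.306, for Il1rl1 by DESeq2's Wald test. Il1rl1 and Il18rap kept a negative log2 fold change in all of these settings. Without AIH 1 and Control 3 together, Il18r1 was at −0.14 and Myd88 at 0.33; with libraries left out in turn, Myd88 ranged from −0.88 without AIH 2 to 0.41 without AIH 1, Il18r1 from 0.086 to 1.21, Il1rl1 from −2.20 to −1.21 and Il18rap from −1.36 to −0.81. The number of genes called over the whole table, 10 (9 higher), was 32 without the filter (24 higher), 3 when scaled by library totals (2 higher and 1 lower), 21 by limma-voom (17 higher), 180 by DESeq2 (96 higher), 0 with the replicate block, 1 without AIH 1 and Control 3 together, and 0 to 1 with libraries left out in turn. Library totals moved the median log2 fold change of all genes by −0.19, and no direction of the 4 genes turned. The replicate numbers only name the libraries: the deviations of same-numbered libraries from their group means correlated at 0.013, 0.0013 and 0.19, and AIH 1 and AIH 2 correlated best with a control of another number. With the replicate block the log2 fold changes were −1.58 for Il1rl1, 0.64 for Il18r1, −1.05 for Il18rap and −0.70 for Myd88, whose value was −0.80 by limma-voom. None of the transcripts of these 4 genes was called in the alternatives that were run on transcripts. Those were DESeq2's size factors, no filter, the replicate block and libraries left out in turn. The difference in short Il1rl1 share kept its sign, at 20.2 points from counts and 9.42 to 36.7 points with libraries left out in turn. The pseudocount alternative was not run, since the tables hold counts.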
